A study of Mus musculus with 6 samples.

Results

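Heterotrimeric G proteins, phospholipase C (PLC), protein kinase C (PKC) and adenylyl cyclases relay signals from receptors at the cell surface to the inside of the cell. The genes described here were the protein-coding genes whose symbols place them in these families, leaving out Prkcsh, a glucosidase subunit that only carries an old PKC substrate name. This rule took 65 of the 45706 genes in the count table, namely 16 Gα, 6 Gβ and 12 Gγ subunits, 12 PLC isoforms, 9 PKC isoforms and 10 adenylyl cyclases. The rule itself used no measured value, but it was set with earlier results of these data known. The study asked which transcripts change in bone marrow LSK cells (Lin- Sca1+ cKit+, the sorted fraction that holds hematopoietic stem and multipotent progenitor cells) once Setd1b, a histone H3 lysine methyltransferase, is deleted in the adult mouse.

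RNA-seq was available for 3 Ctrl mice, heterozygous for the conditional allele (Setd1b FD/+; RC/+), and 3 cKO mice, homozygous for it (Setd1b FD/FD; RC/+). All 6 were males of 16 weeks, labelled C57BL/6 (C57BL/6J in the study's methods), except cKO mouse 3, which was 17 weeks old. RC is the Rosa26-Cre-ERT2 allele, active in nearly all tissues, and every mouse carried 1 copy of it. By the labels, every mouse also received 4.5 mg tamoxifen per gavage on 4 days, then, after a pause of 3 days, on 2 more days, and LSK cells were taken 3 days after the last dose. The study's text describes fewer doses, and which schedule was used could not be settled here. The study calls the groups littermates, but the labels do not say which mice share a litter. Ctrl mice therefore had 1 recombined Setd1b allele, had been exposed to Cre and tamoxifen as well, and were not wild type. Deletion was not restricted to blood cells, so the surrounding marrow also carried it. Each library came from 1 mouse, and library totals ranged from 13003573 to 21277519 counts. The library numbers in the table fell into 2 series. The first held cKO mice 1 and 2 and Ctrl mouse 1, and the second held cKO mouse 3 and Ctrl mice 2 and 3. A pair of abundant non-coding genes, Gm42418 and Gm26917, took 4.45% to 5.30% of each first-series library and 7.52% to 9.04% of each second-series library. What set the series apart beyond the numbers was not given in the sources used here.

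When a receptor is occupied, the Gα subunit exchanges GDP for GTP and separates from the paired Gβ and Gγ subunits. Gs and Gi classes of Gα raise and lower the activity of adenylyl cyclases, which make cyclic AMP (cAMP). The Gq class activates PLCβ, and free Gβγ dimers act on several effectors. PLC cleaves the membrane lipid phosphatidylinositol bisphosphate into inositol trisphosphate, which releases calcium from stores, and diacylglycerol, which recruits PKC isoforms of the conventional (cPKC) and calcium-independent (nPKC) classes. PLCγ isoforms are switched on by tyrosine kinases rather than by G proteins. In blood cells these routes serve chemokine, thrombin, nucleotide and cytokine receptors.

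The targeted gene was read in every library. Setd1b, in counts scaled to library size by the trimmed mean of M-values (CPM, the scale of all levels below), was at 221, 194 and 223 in Ctrl mice 1 to 3 and at 272, 288 and 314 in cKO mice 1 to 3. The total was thus higher in the libraries labelled cKO (log2 fold change 0.46, adjusted p = 0.00146, edgeR quasi-likelihood test). The table counts reads per gene and not per exon, so it cannot show the excised exon, and this total neither checks nor contradicts the genotype. The study itself reported complete recombination by PCR in sorted long-term stem cells and multipotent progenitors. It also reported loss of Setd1b mRNA by qRT-PCR in cKO multipotent progenitors. Both were measured weeks after induction, later than the cells used here. Of the genes that define the LSK gate, Kit was at 395 to 514 CPM in Ctrl and 416 to 466 for cKO, Ly6a (Sca1) at 36.5 to 56.3 and 35.8 to 39.3, and neither passed the test. Cd34 and Flt3, which subdivide LSK cells, did not pass either. Flt3 was at 275, 280 and 192 CPM in Ctrl mice 1 to 3 and 177, 221 and 203 in cKO mice 1 to 3 (log2 fold change -0.31 ± 0.12, SE, adjusted p = 0.12, edgeR). The T cell genes Cd3d, Cd3e and Cd8a, the B cell gene Ms4a1 and the neutrophil gene Ly6g had at most 3 counts in every library. Other genes of these lists were present. Among T and NK cell markers Lck was at 15.7 to 22.4 CPM over all libraries, Nkg7 fell from 41.2 to 57.6 CPM in Ctrl to 23.6 to 31.02 in cKO, and Gzmb fell as well. Among B and plasma cell markers Xbp1 was at 60.9 to 75.6 CPM over all libraries and Jchain fell by 2.80 on the log2 scale. Marker lists of other cell types moved with the genotype. Of 12 tested granulocyte and monocyte markers, 10 fell and 1 rose (summed level 2946 to 3545 CPM in Ctrl, 529 to 849 in cKO), and of 7 tested erythroid markers 5 fell (350 to 439 and 210 to 248 CPM). Of 8 lymphoid progenitor markers 3 fell (586 to 1242 and 289 to 397 CPM), led by Dntt at -5.86 on the log2 scale. In that list 2 genes had positive fold changes, Blnk at 0.98 (adjusted p = 0.052, edgeR) and Notch1 at 0.13, and neither passed. Of 6 mast cell and basophil markers 4 fell (55.5 to 66.7 and 18.4 to 25.9 CPM), and the 2 tested stroma and endothelium markers, Pecam1 and Cxcl12, fell (list sum 115 to 127 and 92.4 to 95.4 CPM). The summed T and NK cell markers were at 71.9 to 79.8 and 46.9 to 51.9 CPM (2 of 4 tested fell), and those of B and plasma cells overlapped at 90.3 to 97.2 and 82.5 to 95.7 CPM (1 of 4 fell). Of 11 long-term stem cell markers 7 rose (479 to 527 and 583 to 671 CPM). Of 10 tested megakaryocyte and platelet markers, Itgb3 rose (1.07 on the log2 scale) while Pf4 (-1.27) and Thbs1 (-0.89) fell, and the list sums overlapped (191 to 231 and 189 to 262 CPM). The part of these shifts in the results on single members was not tested. In bulk samples, fewer cells of a type and less RNA per cell cannot be told apart. The study describes the make-up of LSK cells at this stage as largely like that of controls, without showing the data. By qRT-PCR on sorted subsets it also reported lower Klf1 in long-term stem cells, Mpo in multipotent progenitors and Ighm in lymphoid-primed progenitors. No member of the families here was among those 3 genes.

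In LSK cells, 9 members differed between the groups. In the libraries labelled cKO, transcripts rose for 3 PKC isoforms (Prkca, Prkch, Prkce), for 2 PLC isoforms (Plcg1, Plch1) and for 2 Gγ subunits (Gng11, Gng2). Transcripts fell for the Gγ subunit Gng12 and the Gα subunit Gna15. No Gβ subunit and no adenylyl cyclase passed the threshold of an adjusted p of 0.05. Of the 65 members 43 passed the filter on low counts and were tested, so 20.9% of them were called, against 7.67% of all 15184 genes tested. That share is raised by 6 called members that the study had itself picked from these libraries, as given below. The 7 higher members stood against 3.88% of all genes called higher, and the 2 lower members against 3.79% called lower. The median log2 fold change of the tested members was 0.03, against 0.00 for all genes.

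The 43 tested members were 12 Gα, 5 Gβ, 7 Gγ, 8 PLC, 7 PKC and 4 adenylyl cyclase genes. The other 22 had at most 11 counts in any library, and 4 of them (Gnat3, Gngt1, Plcd1 and Adcy1, the first 2 being sensory transducin-type subunits) had no count at all. Levels did not overlap between the groups for 17 tested members (39.5%), against 27.3% of all genes tested. All 9 called members were among them and all 9 had the same sign within each library series. An exact permutation test over 3 against 3 mice gave p = 0.1 (two-sided) for each of the 9, the smallest this design allows, so the calls rest on the model fitted across all genes. The study had itself picked Gng2, Gng11, Plcg1, Prkca, Prkce and Prkch from these libraries as phospholipase C signaling genes. All 6 rose, which is not independent evidence of their direction or of the share of members called. Of the 37 tested members outside that selection 3 were called (8.11%), close to the 7.67% of all genes tested.

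**Figure D1:**
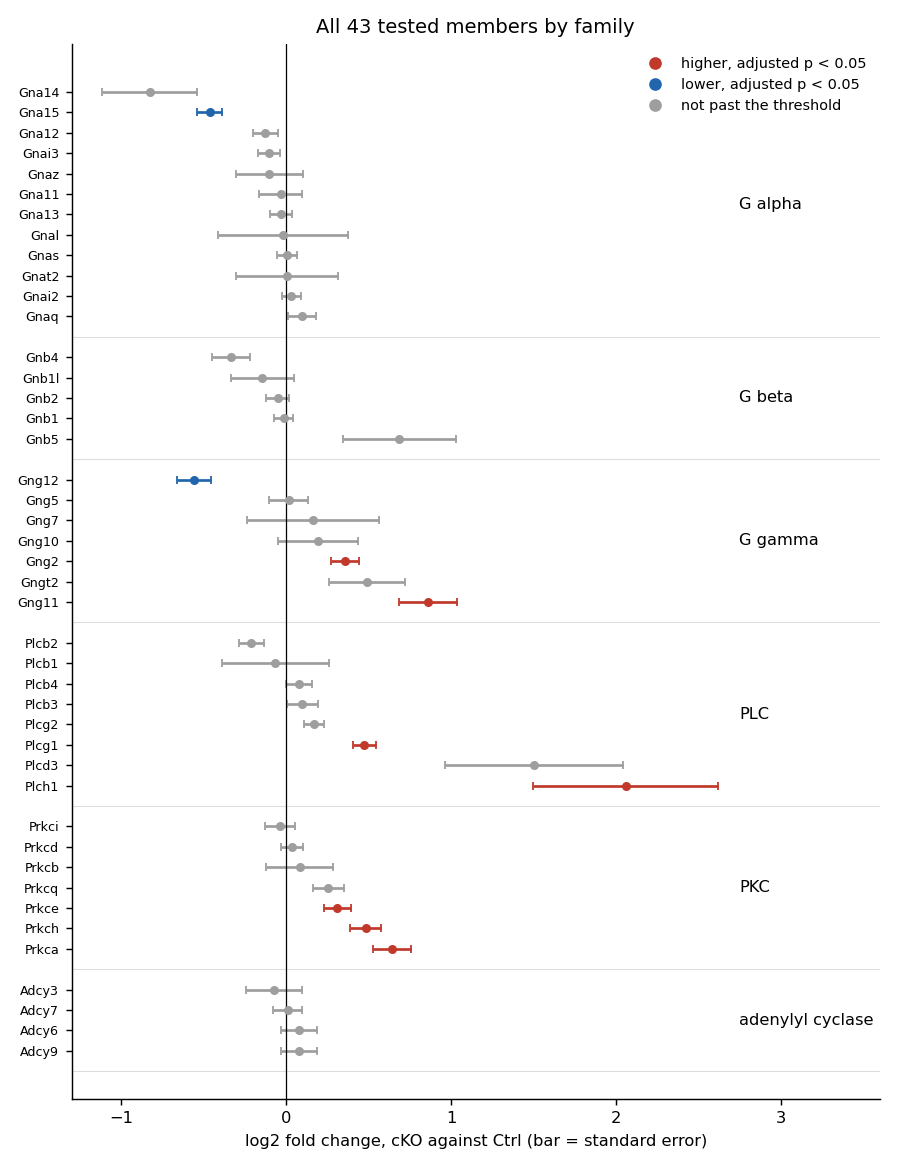
Log2 fold change (x axis, cKO against Ctrl, 3 mice each) of the 43 tested members, grouped by family, with bars of 1 standard error. The 7 members in red passed the threshold upwards and the 2 in blue downwards, and all 5 Gβ and all 4 adenylyl cyclase genes are gray.

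Promoter sequences are shown for 4 of the called members because they stand for both directions and for 4 families, and because the table has a window for each of them near the annotated start. Setd1b acts in a complex with Cxxc1, a protein that binds unmethylated CpG, so each CG is in capitals. The windows are the 250 bases before the RefSeq transcription start (GRCm38.p6, the build of the count table), read 5′ to 3′ on the strand of the gene. They lie at chr2:160731060-160731309 (+ strand) for Plcg1, chr11:108343889-108344138 (- strand) for Prkca, chr6:66896147-66896396 (+ strand) for Gng12 and chr10:81524226-81524475 (- strand) for Gna15.
Plcg1: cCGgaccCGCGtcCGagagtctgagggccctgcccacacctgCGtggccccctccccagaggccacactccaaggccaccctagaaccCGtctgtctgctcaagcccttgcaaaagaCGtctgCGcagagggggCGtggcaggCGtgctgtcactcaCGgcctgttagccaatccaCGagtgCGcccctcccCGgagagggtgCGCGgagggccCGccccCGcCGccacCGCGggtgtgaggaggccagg
Prkca: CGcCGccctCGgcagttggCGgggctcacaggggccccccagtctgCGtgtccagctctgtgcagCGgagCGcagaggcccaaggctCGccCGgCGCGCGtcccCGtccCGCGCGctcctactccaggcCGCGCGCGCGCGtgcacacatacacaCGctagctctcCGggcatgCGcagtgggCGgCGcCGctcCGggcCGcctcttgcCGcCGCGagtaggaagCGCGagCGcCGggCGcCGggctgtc
Gng12: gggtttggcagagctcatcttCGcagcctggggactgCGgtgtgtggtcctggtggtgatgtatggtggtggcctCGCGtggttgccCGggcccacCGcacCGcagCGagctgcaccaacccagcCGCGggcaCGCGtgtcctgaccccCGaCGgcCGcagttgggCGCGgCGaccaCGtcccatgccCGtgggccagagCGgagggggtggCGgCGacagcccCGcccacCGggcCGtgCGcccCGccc
Gna15: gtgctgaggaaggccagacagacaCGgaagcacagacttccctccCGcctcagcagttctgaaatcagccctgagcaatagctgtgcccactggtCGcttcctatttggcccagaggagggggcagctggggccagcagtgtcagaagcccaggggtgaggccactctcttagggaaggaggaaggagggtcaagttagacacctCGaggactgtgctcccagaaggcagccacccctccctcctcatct
The dinucleotide CG, which reads the same on both strands, occurred 21 times in the Plcg1 window, 39 times in Prkca, 28 times in Gng12 and 4 times in Gna15. Over all 32851 windows of the table the median was 6, and 92.1% held at least 1 CG. A window as rich as that of Prkca or richer was found for 1.56% of them, and for Gng12 the share was 7.61%. The Gna15 window was among the poorer ones, since 62.2% of all windows held at least as many CG. Among the 52 members with a window the median was 17.5. The CG-rich windows thus included a gene that rose and a gene that fell. Among called members whose windows are not shown, Gng2 and Plch1 both rose, and their windows held 3 and 9 CG. These letters are a description with no bearing on what binds there.

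Gα subunits had the highest summed level per length of the 6 families. Compared per kilobase of gene length, Gnai2, a Gi subunit that chemokine receptors use in blood cells, led with 155 CPM per kb over all 6 libraries, followed by Gnas, the stimulatory subunit, with 43.3. Gnai2 made up 47.4% ± 1.79 (SD, n = 3) of the summed Gα level for Ctrl and 50.2% ± 0.793 for cKO. Its CPM was 604, 549 and 584 in Ctrl mice 1 to 3 and 598, 600 and 578 in cKO mice 1 to 3. The ranges overlapped and the log2 fold change was 0.03 ± 0.06 (SE, adjusted p = 0.805, edgeR). Gnas was equally level at 483 ± 23.1 and 485 ± 5.44 CPM (SD, n = 3), with a log2 fold change of 0.01 ± 0.06 (SE). Neither sign was stable, and under other settings both fold changes passed slightly below 0.

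Gna15 was the 1 Gα gene of 12 tested that changed (8.33%, against 7.67% of all genes tested). It encodes Gα15, a promiscuous member of the Gq class that couples many receptors to PLCβ and is largely confined to blood cells. Gna15 (ENSMUSG00000034792, 10:81502306-81524225, GRCm38) was at 77.8, 80.8 and 85.7 CPM in Ctrl mice 1 to 3 and at 57.2, 57.3 and 62.6 CPM in cKO mice 1 to 3. Every library labelled cKO lay below every Ctrl library, by a mean of 1.38-fold. In the fit this was a log2 fold change of -0.47 ± 0.08 (SE, adjusted p = 0.00154, edgeR). The difference was -0.44 within the first series and -0.41 within the second. Values within a series, here and below, are differences of mean log2 CPM with a small prior count added, and are not from the fit. In each series a single mouse stands for a group. Its share of the summed Gα level per length was 11.8% ± 0.617 for Ctrl and 8.86% ± 0.501 for cKO (SD, n = 3), and its ratio to Gnaq per length was 4.45 ± 0.605 and 2.99 ± 0.0878. The sum itself was 323 ± 3.27 and 312 ± 1.51 CPM per kb, without overlap. Gna14, another Gq class gene, was low and had 5.36, 4.67 and 3.58 CPM in Ctrl and 1.88, 2.48 and 3.30 CPM in cKO. Its groups did not overlap, but its log2 fold change of -0.83 ± 0.29 (SE) missed the threshold (adjusted p = 0.0947). The ubiquitous Gq class genes Gnaq and Gna11 had log2 fold changes of 0.09 and -0.03, with overlapping groups. Neither of the 2 tested G12 class genes passed (Gna12 at -0.13, Gna13 at -0.03). The same held for the 4 tested genes of the Gi, Gz and transducin classes, whose log2 fold changes lay near 0. Most of the tested granulocyte, monocyte and erythroid markers given above fell in the same libraries as Gna15, and their part in the result was not tested.

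Gβ subunits were carried by Gnb1 (62.9 CPM per kb over all libraries) and Gnb2 (33.3), which are the common partners of Gγ. Gnb1 was at 266, 276 and 268 CPM in Ctrl mice 1 to 3 and 272, 260 and 269 in cKO mice 1 to 3, a log2 fold change of -0.02 ± 0.06 (SE, adjusted p = 0.905, edgeR). Gnb2 had -0.05 ± 0.07. The ranges of both overlapped, and the summed Gβ level per length did so too (103 ± 2.15 and 101 ± 2.79 CPM per kb, SD, n = 3). Gnb4 was lower without overlap, at 32.5, 31.7 and 35.3 CPM in Ctrl and 29.9, 27.1 and 21.8 in cKO, but missed the threshold (log2 fold change -0.33 ± 0.12, SE, adjusted p = 0.0996). It passed with the gene length trend removed. Gnb5 was low and higher without overlap, at 1.84, 2.15 and 1.09 CPM in Ctrl and 2.61, 2.54 and 3.09 CPM in cKO, and also missed the threshold (log2 fold change 0.69 ± 0.34, SE, adjusted p = 0.247). For Gnb2, 3.94% of the exon bases overlap other genes on the same strand, and for Gnb1l, a Gβ-like gene outside the signaling dimer, 3.51% do.

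Among Gγ genes the make-up of the family differed while its sum overlapped between the groups. Gγ subunits are small prenylated proteins that hold Gβ at the membrane, and isoforms differ in the dimers they can form. The summed Gγ level per length was 47.8 ± 3.57 CPM per kb for Ctrl and 52.1 ± 2.93 for the libraries labelled cKO (SD, n = 3), and these ranges overlapped. Within it, Gng12 was the leading isoform of Ctrl cells with 37.1% ± 2.65 and held 23.1% ± 0.968 in cKO. Gng2 went from 21.4% ± 1.03 to 25.1% ± 0.480 and Gng11 from 13.3% ± 1.03 to 22.1% ± 1.90. None of these 3 shares overlapped between the groups. Shares and sums were not tested.

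Gng12 (ENSMUSG00000036402, 6:66896397-67021350) was at 95.3, 83.4 and 71.8 CPM in Ctrl mice 1 to 3 and at 58.1, 61.1 and 50.4 CPM in cKO mice 1 to 3. All cKO libraries lay lower, by 1.48-fold on average. The log2 fold change was -0.56 ± 0.10 (SE, adjusted p = 0.0032, edgeR), with -0.68 in the first series and -0.62 in the second. Gng11 (ENSMUSG00000032766, 6:4003943-4008445), a farnesylated Gγ known from platelets and endothelium, was at 5.66, 5.39 and 5.69 CPM in Ctrl and at 9.31, 11.4 and 9.61 CPM in cKO. Its Ctrl libraries were nearly alike and all 3 cKO libraries lay above them, a 1.81-fold higher mean. Gng11 had a log2 fold change of 0.86 ± 0.18 (SE, adjusted p = 0.00703, edgeR), with 0.85 and 0.78 within the series, and without cKO mouse 2 the adjusted p became 0.0545. Megakaryocyte and platelet markers went both ways, with 1 of 10 tested higher and 2 lower, and Pecam1 of the stroma and endothelium list fell, as given above. Their part in the Gng11 result was not tested.

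Gng2 (ENSMUSG00000043004, 14:19872559-19977627), a widely used Gγ partner of Gnb1, was at 48.4, 42.0 and 44.3 CPM in Ctrl mice 1 to 3 and at 59.5, 59.7 and 53.2 CPM in cKO mice 1 to 3. The cKO libraries were all higher, by 1.28-fold on average. Gng2 had a log2 fold change of 0.36 ± 0.09 (SE, adjusted p = 0.0198, edgeR) and 0.30 within each series, and the call was lost without cKO mouse 1, cKO mouse 2, Ctrl mouse 2 or Ctrl mouse 3 (adjusted p = 0.0798, 0.103, 0.0788 and 0.0743). It was also lost with library series as a covariate and the gene length trend removed (0.0725). Per length, the ratio of Gng2 to Gng12 was 0.544, 0.539 and 0.659 in Ctrl mice and 1.10, 1.04 and 1.13 in cKO mice. The same ratio for Gng11 was 0.317, 0.344 and 0.423 in Ctrl and 0.855, 0.999 and 1.02 in cKO. For both ratios every cKO mouse lay above every Ctrl mouse. This follows from the single genes, since Gng2 and Gng11 rose and Gng12 fell without overlap, and is no further evidence. The other 4 tested Gγ genes (Gng5, Gng7, Gng10, Gngt2) did not pass, with log2 fold changes from 0.01 to 0.49. For Gng10, 72.0% of the exon bases overlap another gene on the same strand, so its counts are uncertain.

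**Figure D2:**
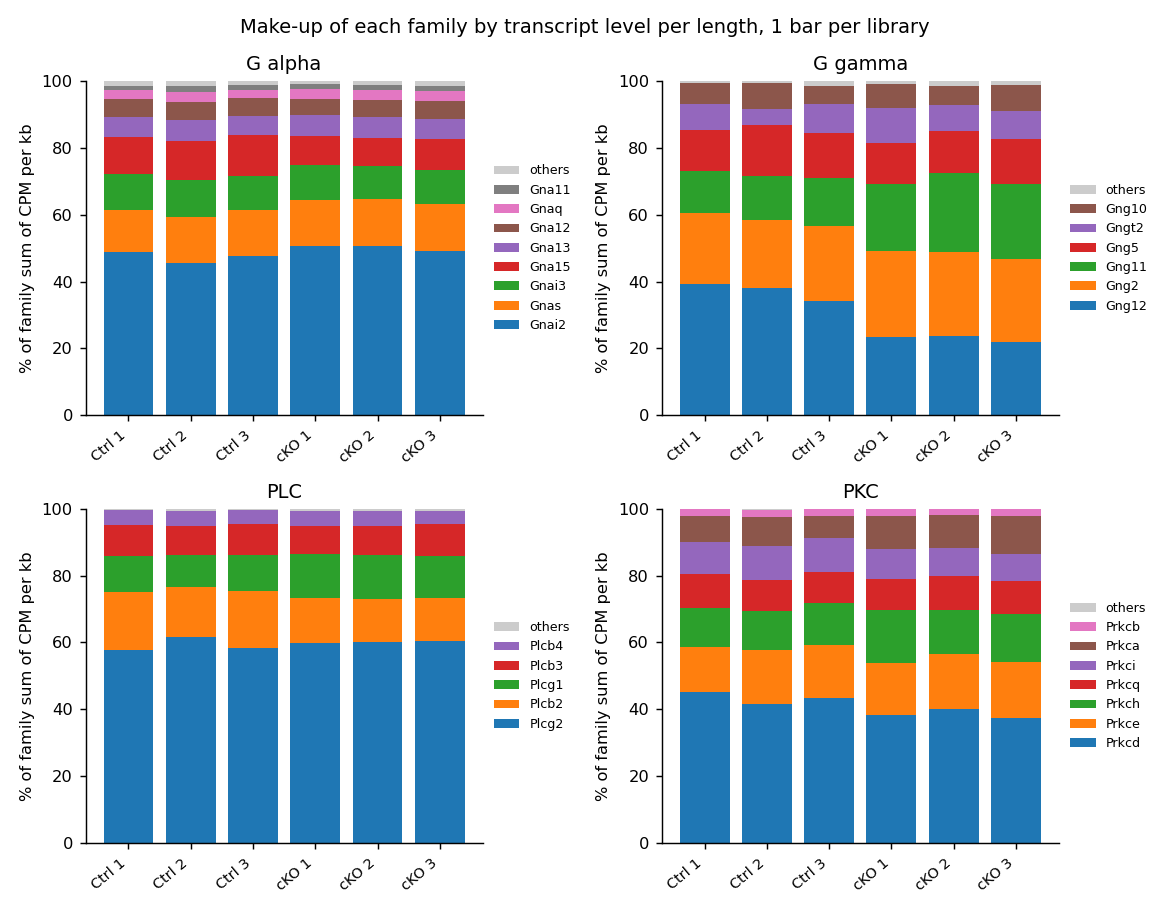
Share of each family's summed CPM per kb (y axis, percent) taken by each gene, with 1 bar for each of the 6 libraries (x axis) and genes under a small share pooled as others. In the Gγ panel the Gng12 segment averages 37.1% for Ctrl and 23.1% for cKO and that of Gng11 13.3% and 22.1%, and in the PKC panel Prkcd averages 43.4% and 38.6%.

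The summed PLC level per length was 124 ± 1.85 CPM per kb for Ctrl and 137 ± 7.38 for cKO (SD, n = 3), without overlap. The leading gene was Plcg2, the PLCγ of B cells and myeloid cells, with 78.1 CPM per kb, ahead of Plcb2, the PLCβ that Gq and Gβγ switch on in leukocytes, with 19.2. Plcg2 was at 307, 324 and 316 CPM in Ctrl mice 1 to 3 and at 341, 345 and 379 CPM in cKO mice 1 to 3. The groups did not overlap, but the log2 fold change of 0.17 ± 0.06 (SE) missed the threshold (adjusted p = 0.121, edgeR).

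Plcg1, the broadly expressed PLCγ that acts below T cell, cytokine and growth factor receptors, had the smallest adjusted p of the members. Plcg1 (ENSMUSG00000016933, 2:160731300-160775760) was at 106, 92.2 and 104 CPM in Ctrl mice 1 to 3 and at 138, 137 and 145 CPM in cKO mice 1 to 3. The lowest cKO library stood well above the highest Ctrl library, and the mean rose 1.39-fold. The log2 fold change was 0.47 ± 0.07 (SE, adjusted p = 0.000801, edgeR), with 0.37 in the first series and 0.57 in the second. None of the 4 PLCβ genes, the isoforms that G proteins activate, passed the test, against 7.67% of all genes called. Plcb2 was at 142, 121 and 144 CPM in Ctrl and at 116, 113 and 122 in cKO, where Ctrl mouse 2 fell within the cKO range (log2 fold change -0.21 ± 0.07, SE, adjusted p = 0.101). The ratio of Plcg1 to Plcb2 per length was 0.629, 0.638 and 0.609 in Ctrl mice and 1.002, 1.01 and 0.999 in cKO mice. The ratio to Plcg2 differed less, at 0.189, 0.156 and 0.180 in Ctrl mice and 0.221, 0.217 and 0.210 in cKO mice. Plcb3 and Plcb4 had log2 fold changes of 0.10 and 0.08. The difference between Plcg1 and the PLCβ genes was not tested as such.

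Plch1 and Plcd3 were close to the detection limit. Plch1 (ENSMUSG00000036834, 3:63696234-63899472), a PLCη known mainly from neurons, had 3, 6 and 4 counts in Ctrl mice 1 to 3 and 23, 17 and 10 counts in cKO mice 1 to 3. This is 0.257 ± 0.0282 and 1.11 ± 0.421 CPM (SD, n = 3). Its log2 fold change was 2.06 ± 0.56 (SE, adjusted p = 0.037, edgeR), with 1.99 and 1.06 within the series. The call was lost when any of the 6 mice was left out (adjusted p from 0.0519 to 0.166), with DESeq2 (0.0686) and with library series as a covariate (0.0986). Plcd3 had 4, 25 and 4 counts in Ctrl and 19, 27 and 34 in cKO. Its CPM values did not overlap, with Ctrl mouse 2 at 1.19 and cKO mouse 1 at 1.27, and it missed the threshold (log2 fold change 1.504 ± 0.54, SE, adjusted p = 0.107). The value rested on single mice, since it ran from 1.152 without Ctrl mouse 3 to 2.64 without Ctrl mouse 2, where it passed (adjusted p = 0.0178, edgeR). It also passed with no filter on low counts (0.0400) and with library series and the length trend together (0.0497).

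PKC isoforms are serine/threonine kinases in 3 classes, which differ in whether they need calcium and diacylglycerol. Their summed level per length was 57.3 ± 1.59 CPM per kb for Ctrl and 66.1 ± 2.29 for cKO (SD, n = 3), without overlap. Prkcd, an nPKC isoform, was the leading gene with 25.2 CPM per kb and did not pass the test, at 133, 118 and 121 CPM in Ctrl mice 1 to 3 and 123, 130 and 128 in cKO mice 1 to 3 (log2 fold change 0.03 ± 0.07, SE, adjusted p = 0.822, edgeR). The 3 isoforms that rose were Prkca, Prkch and Prkce.

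Prkca (ENSMUSG00000050965, 11:107933387-108343928), the main conventional isoform here, which needs both calcium and diacylglycerol, was at 41.1, 45 and 32.9 CPM in Ctrl mice 1 to 3. In cKO mice 1 to 3 it was at 57.5, 58.0 and 70.8 CPM. All cKO libraries were higher, with cKO mouse 3 the highest and Ctrl mouse 3 the lowest, both of the second series. The mean rose 1.57-fold, and the log2 fold change was 0.64 ± 0.11 (SE, adjusted p = 0.00288, edgeR), with 0.49 in the first series and 0.88 in the second. Prkcb, the other tested conventional isoform, was low at 5.12 to 6.73 CPM, overlapped between the groups and had a log2 fold change of 0.08 ± 0.20 (SE).

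Prkch (ENSMUSG00000021108, 12:73584797-73778185), an nPKC isoform, which needs diacylglycerol but not calcium, was at 30.99, 30.6 and 31.5 CPM in Ctrl mice 1 to 3 and at 45.9, 39.3 and 44.9 CPM in cKO mice 1 to 3. The Ctrl mice were nearly alike and each cKO mouse was higher, for a 1.40-fold higher mean. The log2 fold change was 0.48 ± 0.09 (SE, adjusted p = 0.00467, edgeR), with 0.45 and 0.53 within the series. Prkce (ENSMUSG00000045038, 17:86167785-86657919), also an nPKC isoform and second to Prkcd per length with 9.68 CPM per kb, was at 57.9, 66.2 and 64.0 CPM in Ctrl and at 73.1, 77.4 and 83.2 CPM in cKO. The groups were separate but closer, with a mean 1.24-fold higher. Its log2 fold change was 0.31 ± 0.08 (SE, adjusted p = 0.0282, edgeR), with 0.38 and 0.35 within the series, and the call was lost without cKO mouse 2, cKO mouse 3, Ctrl mouse 1 or Ctrl mouse 3 (adjusted p = 0.0973, 0.109, 0.0848 and 0.0740). It was also lost with the gene length trend removed (0.0756).

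Prkcq, the nPKC isoform of T cell signaling, was at 42.2, 36.3 and 36.6 CPM in Ctrl and at 42.5, 46.3 and 48.3 CPM in cKO, so that Ctrl mouse 1 and cKO mouse 1 almost met. It missed the threshold (log2 fold change 0.26 ± 0.09, SE, adjusted p = 0.115, edgeR). Of the 4 nPKC isoforms 2 rose, and of the 2 tested conventional isoforms 1 rose, against 3.88% of all genes called higher. Prkci, the 1 tested atypical isoform, had a log2 fold change of -0.04 ± 0.09 (SE). The classes hold few genes and were not compared by a test. All PKC isoforms that rose are among the genes the study had itself picked from these libraries. In shares of the PKC sum per length, Prkca went from 7.69% ± 1.12 to 10.4% ± 0.898, Prkch from 12% ± 0.443 to 14.5% ± 1.21, and Prkcd from 43.4% ± 1.78 to 38.6% ± 1.38 (SD, n = 3), none of them with overlap. Of the 11 long-term stem cell markers given above, 7 rose in the same libraries as these PKC genes. The others did not pass, among them Slamf1, Hlf and Meis1 with log2 fold changes of -0.01, 0.07 and 0.02. The part of these markers in the result was not tested.

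**Figure D3:**
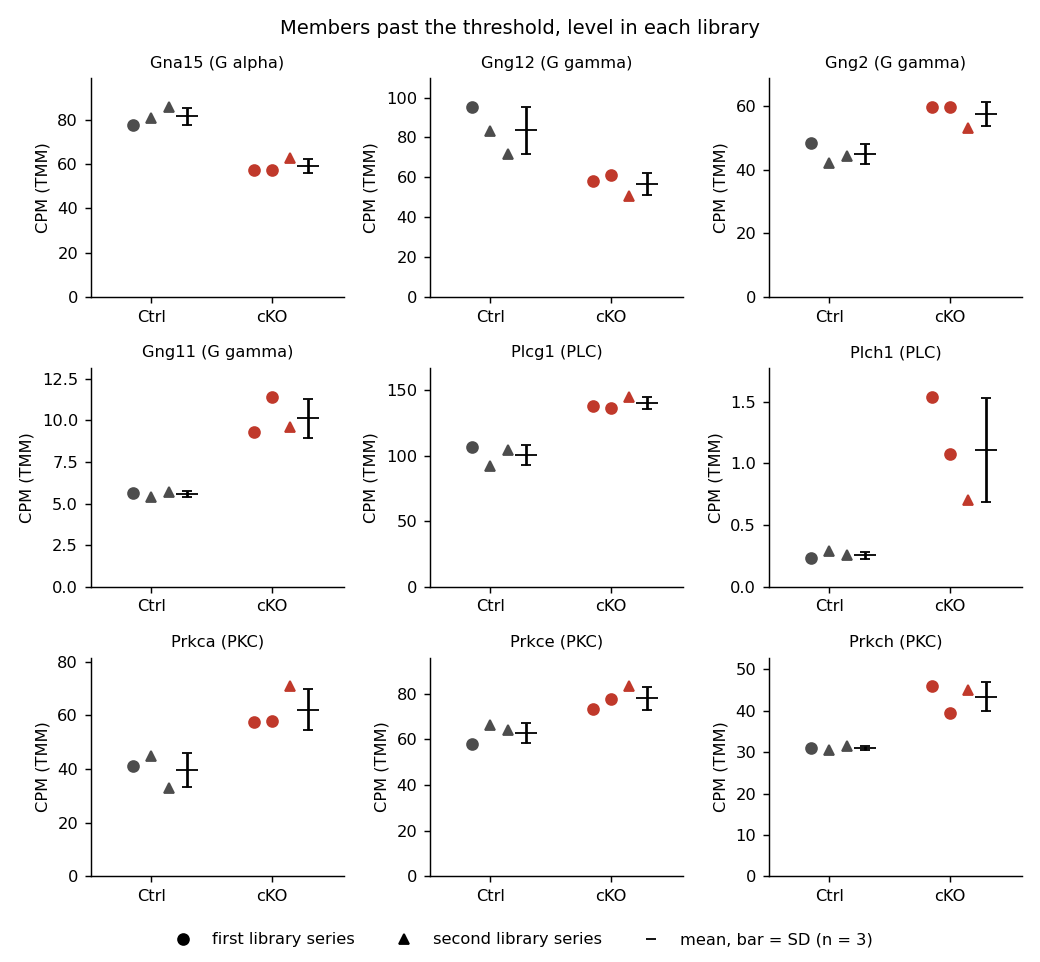
Level in CPM (y axis, from 0) of the 9 members past the threshold in each of 3 Ctrl and 3 cKO mice, with the mean and SD beside the points and the 2 library series as circles and triangles. In every panel the Ctrl and cKO points are separate, from 77.8 to 85.7 against 57.2 to 62.6 CPM for Gna15 to 0.230 to 0.286 against 0.701 to 1.54 CPM for Plch1.

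Adenylyl cyclases showed no difference that the test could pick up. Adcy7, the Gβγ-stimulated isoform of blood cells, led with 16.4 CPM per kb, followed by Adcy9 with 8.59. Adcy7 was at 115, 106 and 90.0 CPM in Ctrl mice 1 to 3 and at 97.4, 113 and 102 CPM in cKO mice 1 to 3. The ranges overlapped throughout, with a log2 fold change of 0.01 ± 0.09 (SE, adjusted p = 0.965, edgeR). Adcy9 was at 46.4, 40.1 and 43.8 CPM in Ctrl and at 38.5, 45.7 and 53.2 CPM in cKO, and its log2 fold change was 0.08 ± 0.11 (SE). Adcy3 and Adcy6 had -0.07 ± 0.17 and 0.08 ± 0.11. None of the 4 reached an unadjusted p under 0.05 (edgeR), against 3470 of all 15184 genes tested. None was called, against 7.67% of all genes, and the smallest adjusted p was 0.732. The sign of the Adcy7 fold change turned under 6 of 15 alternatives and that of Adcy9 without cKO mouse 3. The summed level was 32.5 ± 2.53 and 33.3 ± 2.73 CPM per kb (SD, n = 3). The other 6 isoforms, with at most 11 counts in any library, were not tested.

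The genes around the members were taken from 7 lists chosen by known role (among them receptors, RGS proteins, other direct regulators, calcium, diacylglycerol and cAMP). They held 147 genes, of which 127 were tested, 7 rose and 7 fell. This is 11.02% of those tested, against 7.67% of all genes. Of 36 tested receptors, 3 fell and 1 rose (11.1% called). Ccr2, the monocyte chemokine receptor, was at 56.1, 50.1 and 39.3 CPM in Ctrl mice 1 to 3 and at 14.3, 10.4 and 10.4 CPM in cKO mice 1 to 3 (log2 fold change -2.05 ± 0.15, SE). The orphan receptor Gpr171 also fell (-0.93 ± 0.11), as did the fractalkine receptor Cx3cr1 (-1.41 ± 0.28, SE). F2r, the thrombin receptor that signals through Gq and G12 classes, rose from 91.8 ± 10.1 to 130 ± 3.47 CPM (SD, n = 3; log2 fold change 0.51 ± 0.08, SE, adjusted p = 0.00112, edgeR). Ccr2 and Cx3cr1 are monocyte genes, and most of the tested granulocyte and monocyte markers given above fell in the same libraries. Their part in the result was not tested.

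RGS proteins speed GTP hydrolysis by Gα and so shorten the signal. Of 9 tested 3 were called (33.3%). Rgs18, which acts on Gi and Gq in myeloid cells and platelets, fell from 78.7 ± 5.46 to 32.7 ± 3.69 CPM (SD, n = 3; log2 fold change -1.26 ± 0.09, SE). Rgs1 fell by 0.50 and Rgs2, which acts on Gq, rose by 0.33 on the log2 scale. The Rgs1 call was lost without cKO mouse 1 or Ctrl mouse 1 (adjusted p = 0.0907 and 0.0697, edgeR). For Rgs2 it was lost without any mouse but Ctrl mouse 1 (0.0702, 0.145 and 0.133 without cKO mice 1 to 3, 0.155 and 0.142 without Ctrl mice 2 and 3). It was also lost with library series as a covariate (0.0717), the gene length trend removed (0.0503) or the GC trend removed (0.0530). None of the 14 other direct regulators of G proteins and receptors passed (edgeR, against 7.67% of all genes). An unadjusted p under 0.05 was reached by 3 of them, against 3470 of all 15184 genes tested.

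Downstream, of 21 tested genes of inositol trisphosphate and calcium handling, 1 passed (4.76%, against 7.67% of all genes), the calcium pump Atp2a2, which fell from 239 ± 5.04 to 203 ± 11.4 CPM (SD, n = 3; log2 fold change -0.24 ± 0.06, SE). That call was lost without any mouse but cKO mouse 3 (adjusted p from 0.0613 to 0.141, edgeR). Among 15 tested genes of the diacylglycerol branch 3 were called (20%). The PKC-activated kinase Prkd3 (0.35 ± 0.07) and Marcksl1, a relative of the PKC substrate MARCKS, rose (0.49 ± 0.09), and Rasgrp2, a calcium-regulated activator of Rap1, fell (-0.35 ± 0.07). In the cAMP branch 0 of 21 tested genes passed (edgeR), against 7.67% of all genes. An unadjusted p under 0.05 was reached by 6 of the 21, against 3470 of all 15184 genes tested.

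**Figure D4:**
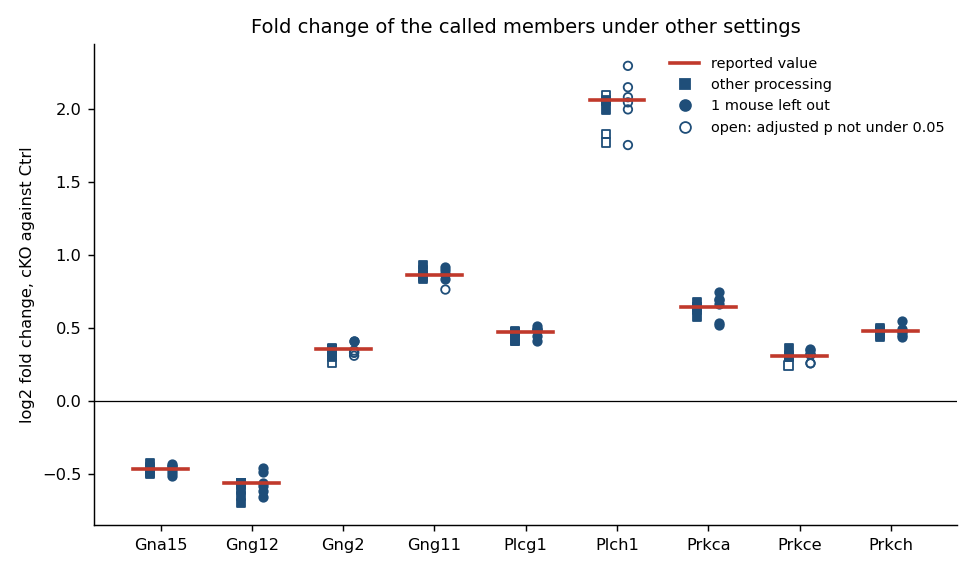
Log2 fold change (y axis, cKO against Ctrl) of the 9 called members as reported (red line), under other processing (squares) and with 1 mouse left out (circles), open where the adjusted p was not under 0.05. No point crosses 0. Gna15, Gng12, Plcg1, Prkca and Prkch have filled points only, whereas Plch1 is open for each mouse left out.

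The calls differed in how well they held. Gna15, Gng12, Plcg1, Prkca and Prkch stayed past the threshold in each of 15 alternatives at the same threshold, with adjusted p up to 0.0157, 0.0180, 0.00615, 0.0180 and 0.0283. Gng11 did so in 14, Gng2 and Prkce in 10, and Plch1 in 5 of the 14 that could test it. Without cKO mouse 2, 3 members were called higher instead of 7 (1.91% of all genes in that fit), and without Ctrl mouse 3, 4 were (2.09%). At an adjusted p under 0.01, 4 were called higher (1.59% of all genes). Removing the gene length trend gave 6 higher and 4 lower members in place of 7 and 2, adding Gnb4 and Plcb2 to the lower ones. Over all genes that setting gave 523 higher and 842 lower calls, or 3.44% and 5.55% of those tested, in place of 589 and 575.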

How the data were processed

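LSK cells of 6 mice were sorted and sequenced by the submitters, who prepared 1 library per mouse from total RNA. According to the file header and the methods of the study, the authors aligned reads with GSNAP to mm10 and made the deposited counts with featureCounts (1.5.0) on Ensembl gene models, by strand and summed over exons. The values are raw counts per gene with the gene length beside them. Library totals ranged from 13003573 to 21277519 counts, so members with a handful of counts are imprecise.

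Groups were taken from the genotype labels. Mice of a group were numbered in accession order, and the numbers pair nothing. The comparison was fitted on the whole table with edgeR 4.0.16 (R 4.3.3) by its quasi-likelihood test, with TMM factors, the default filter on low counts, genotype as the only term and Benjamini-Hochberg adjustment over the 15184 genes tested, at a threshold of 0.05. The standard error is that of the fitted log2 fold change. DESeq2 1.42.0, the tool of the study's own methods, was run as an alternative, beside settings for normalization, low counts, gene length, GC, library series, abundant genes, threshold and leaving out each mouse. Levels are CPM, and between genes CPM per kb of the deposited length. Members, partner lists and marker lists were chosen with earlier results of these data known, and settings that combine library series with the length trend were added after seeing the data. Named with values were the members past the threshold, the 2 highest per length in each family, the 6 the study lists for phospholipase C signaling, the 5 closest to the threshold among members whose groups did not overlap, and in each partner list up to 3 past the threshold. The exception is 1 of the 7 partner lists, which enters the totals over all lists and whose own result is not reported here. Other genes named for context were chosen after their values were seen. On simulated counts for 14994 genes with 200 changed, the test recovered 73% of changes of 1 and 92% of changes of 2 on the log2 scale, and called 0.0473% of unchanged genes. These counts held no smaller changes and no library series, and were drawn from the kind of model that the test assumes. They cannot show how well changes under 1 are recovered, the size of most called members. Promoter windows came from a RefSeq table (GRCm38.p6), which matched 52 of the 65 members by symbol.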

Additional observations from a re-analysis of the deposited data

How the results depend on the processing

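All 9 called members kept their direction under all settings tried. The count of higher members, 7 as reported, was 4 at an adjusted p under 0.01 and 3 to 6 with 1 mouse left out. The count of lower members, 2 as reported, was 4 with the gene length trend removed and 4 with that trend and library series together, and 2 to 3 with 1 mouse left out. Over all genes, 604 were called without cKO mouse 2, 739 without cKO mouse 3 and 665 without Ctrl mouse 3, in place of 1164. Fewer samples enter those fits. Higher partner genes, 7 as reported, numbered 11 with no filter on low counts, 4 with the gene length trend removed, 4 at an adjusted p under 0.01 and 4 to 8 with 1 mouse left out. The count of lower partner genes stayed within 1.5 times its value, and Setd1b kept its sign and call (log2 fold change 0.37 to 0.50).

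Signs turned only for uncalled members near 0. With the length trend removed the log2 fold change was -0.081 for Gnas, -0.022 for Prkcd and -0.054 for Adcy7. With the GC trend removed it was -0.027 for Gnas and -0.0023 for Adcy7, and with library series as a covariate -0.034 for Adcy7. With series and length together it was -0.015 for Gnai2, -0.052 for Gnas, -0.042 for Prkcd and -0.094 for Adcy7. With 1 mouse left out the values ran from -0.0063 to 0.063 for Gnai2, -0.034 to 0.023 for Gnas, -0.030 to 0.0031 for Gnb1, -0.0032 to 0.084 for Prkcd, -0.084 to 0.088 for Adcy7 and -0.046 to 0.19 for Adcy9. The cause of these changes was not tested.

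No paired analysis was possible because the labels do not say which Ctrl and cKO mice share a litter and give no number shared between the groups. With 10 or more counts required in every library, Plch1 and Plcd3 were not tested. The values of Plch1 and Plcd3 rest on at most 34 counts in a library.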

Other observations

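Some relatives lie outside the symbol rule and were looked at after the other values were seen. Of the soluble guanylyl cyclase genes, whose product makes cyclic GMP, Gucy1a1 rose from 15.3 ± 2.16 to 21.7 ± 2.03 CPM (SD, n = 3; log2 fold change 0.50 ± 0.13, SE, adjusted p = 0.033, edgeR), and its partner Gucy1b1 was at 2.51 ± 0.128 and 4.37 ± 0.547 CPM and missed the threshold (adjusted p = 0.074). Cavin3, a caveolar protein also known as a PKC delta binding protein, rose from 3.89 ± 0.502 to 7.17 ± 1.501 CPM (log2 fold change 0.88 ± 0.23, SE, adjusted p = 0.030). The PLC-like gene Plcl2, which lacks lipase activity, was at 96.8 ± 8.39 and 90.0 ± 5.15 CPM. Rack1, the receptor for activated PKC, was at 1197 ± 78.8 and 1111 ± 52.2 CPM with a log2 fold change of -0.11 ± 0.07 (SE), and also did not pass.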
